A study of Mus musculus with 6 samples.

Results

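The cochlear lateral wall was examined here through 9 genes that mark the fibrocytes of the spiral ligament, namely Coch, Otos, Otor, Pou3f4, Tbx18, Emilin2, Tgfbi, S100a1 and Cav1. The genes were listed by symbol, and all 9 were found among the 17091 genes of the deposited table. Bulk RNA was sequenced from the wall of inbred CBA/CaJ animals, 3 of them young (2 months) and 3 of them old (2.5 years). A library holds both cochleas of 1 mouse, and the labels give neither group a transgene or a treatment and set the groups apart by age. The same suffix ends the column names of young replicate 1 and old replicate 2. Whether the groups were prepared and sequenced together cannot be told from the column names. Titles and tissue entries give lateral wall for every sample, but the source entries read auditory nerve cells. Values are normalised read counts, that is, read counts scaled by one factor per library.

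The spiral ligament is connective tissue between the bony wall of the cochlea and the stria vascularis. Its fibrocytes secrete a matrix that anchors the basilar membrane, and they take up potassium released by the sensory epithelium and pass it through gap junctions to the stria, which secretes it into endolymph. Loss of fibrocytes is a known feature of ageing cochleas. The 9 genes cover secreted proteins (Coch, Otos, Otor), transcription factors (Pou3f4, Tbx18), matrix glycoproteins (Emilin2, Tgfbi), a calcium-binding protein (S100a1) and a membrane coat protein (Cav1). At least the last pair are not restricted to fibrocytes, since endothelium is rich in Cav1 and muscle in S100a1. Whether the other members are restricted to fibrocytes in this tissue was not tested.

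In old lateral wall, Otos was the only member to pass the limma test over the 6 libraries. It fell to about a 3.24-fold lower mean, and all 3 old libraries lay below all 3 young ones. Coch, Pou3f4 and Tbx18 were well below the young values in old replicates 1 and 3 and close to or within the young range in old replicate 2, and none of these passed the test over the 6 libraries. The 95% intervals of Coch (−1.34 to −0.15) and Tbx18 (−0.94 to −0.17), not adjusted for the number of genes, still lay below 0. S100a1 and Cav1 had intervals around 0, and Emilin2 had high values in old replicates 2 and 3 alone. By limma with Benjamini-Hochberg adjustment over all genes, 1 of the 9 members was called, and it was lower in old, where 5.25% of all genes were called, 2.55% lower and 2.71% higher. The groups did not overlap in 2 of the 9 (Otos and Tbx18, both lower in old), and 26.1% of all genes were apart, 12.8% in that direction. The median log2 fold change of the members, old minus young, was −0.52, with 6 of 9 negative, against a median of −0.00097 for all genes, of which 50.2% were negative. Without old replicate 2, 4 members were called, all lower (Otos, Coch, Tbx18 and Pou3f4), where 6.64% of all genes were called and 3.39% were lower. Without old replicate 1, 2 were called (Otos and Emilin2), where 4.96% of all genes were. DESeq2 on recovered reads and the authors' deposited table each called 3 members (Otos and Tbx18 lower, Emilin2 higher), with 10.9% and 10.8% of the genes they adjusted. The reads were recovered from the authors' own deposited values, so these results are not independent of each other. With edgeR, Otos alone was called, with 5.07% of all genes. In bulk tissue, fewer fibrocytes and less RNA per fibrocyte cannot be told apart.

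The libraries were of like depth, with 37055355 to 39103399 recovered reads. Old replicate 3 stood apart in Xist, the transcript of the inactive X chromosome, with 45.2 normalised reads against 24382 to 29162 in the other 5 libraries, and the labels give no sex. Markers of blood and marrow cells were high in old replicates 1 and 3: the summed level of 20 erythroid and neutrophil markers was 27917, 8116 and 54990 in old replicates 1, 2 and 3, against 3481 to 5437 in the young. Of these 20 genes, 3 rose and 0 fell in the limma fit over 6 libraries, and 19 rose without old replicate 2. Leaving out young replicate 1 gave 1 that rose, and leaving out young replicate 2 or 3 gave 0. Epb42, a membrane protein of red cells, was at 0 in young replicates 1 and 2 and in old replicate 2. The 13 neuron and glia markers summed to 28253, 39890 and 45131 in old replicates 1, 2 and 3 and to 22680 to 27813 in the young, and 2 of them rose, 9 without old replicate 1 and 1 without any other single library. The 15 macrophage markers summed to 9617 to 11277 in young and 30636 to 43987 in old libraries, and 11 rose (7 without young replicate 3). Over all genes, 2.71% rose in the limma fit over 6 libraries. None of the endothelial, neuron and glia, macrophage or bone markers was at 0 in any library.

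The stretches of DNA before the start sites of Coch, Otos, Pou3f4 and Tbx18, 4 members of the secreted and regulatory classes, are shown first. Each is the 250 bases upstream of the RefSeq start site in GRCm38.p6, 5′ to 3′ on the strand of the gene, except that Pou3f4 is shown up to the start of its longer GENCODE model, the first 151 bases. Capitals mark matches, on either strand, to a CCAAT box (CCAAT) or a GC box (GGGCGG).
Coch: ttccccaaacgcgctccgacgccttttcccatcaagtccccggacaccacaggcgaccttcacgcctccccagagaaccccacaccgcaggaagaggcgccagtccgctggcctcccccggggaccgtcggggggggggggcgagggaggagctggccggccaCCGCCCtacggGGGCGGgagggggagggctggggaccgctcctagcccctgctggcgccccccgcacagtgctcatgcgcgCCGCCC
Otos: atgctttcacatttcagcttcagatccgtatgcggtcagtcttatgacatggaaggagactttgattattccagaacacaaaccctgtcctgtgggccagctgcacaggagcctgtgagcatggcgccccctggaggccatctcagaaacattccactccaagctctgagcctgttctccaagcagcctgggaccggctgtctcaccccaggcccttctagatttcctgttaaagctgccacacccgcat
Pou3f4: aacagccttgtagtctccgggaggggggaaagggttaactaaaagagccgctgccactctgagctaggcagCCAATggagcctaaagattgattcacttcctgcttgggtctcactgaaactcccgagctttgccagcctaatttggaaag
Tbx18: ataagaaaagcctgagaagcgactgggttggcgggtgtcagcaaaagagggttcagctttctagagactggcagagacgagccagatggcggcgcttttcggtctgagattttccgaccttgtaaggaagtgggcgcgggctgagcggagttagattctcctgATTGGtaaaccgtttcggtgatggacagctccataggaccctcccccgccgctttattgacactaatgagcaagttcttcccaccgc
The windows lie at chr12:51593091-51593340 on the plus strand (Coch), chr1:92648842-92649091 on the minus strand (Otos), chrX:110814129-110814279 on the plus strand (the stretch shown for Pou3f4) and chr9:87731261-87731510 on the minus strand (Tbx18). The Coch window held 74.8% G and C and 3 GC boxes, 82, 71 and 1 bases from the start site. The Otos window held 54.0% G and C and no match to any motif searched. The whole Pou3f4 window had 3 CCAAT boxes, at 175, 72 and 31 bases, the first of them shown above, and Tbx18 had 1, at 83 bases. Among all 32851 windows of this length, 33.9% held a CCAAT box, 32.7% a GC box, 12.4% a TATA box (TATAAA), 6.02% an E-box (CACGTG), 3.33% a T-box core (GGTGTGA) and 1.60% the octamer of POU factors (ATGCAAAT). Of these last 4 motifs none was found in the 4 windows. Whether any motif bears on the expression of these genes was not tested. All 9 members had a window in the RefSeq table, and the median G and C share over all windows was 52.4%.

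Levels were compared between genes per length, in RPKM (reads per kb of exon, scaled to the depth of the library). Length is that of all annotated exons of a gene merged: 2998 bases for Coch, 694 for S100a1 and 3082 for Otos. The transcript in the tissue may be shorter. In normalised counts the young mean of Otos (151382) was above that of S100a1 (59046), so their order below rests on these lengths. In the young mice Coch came first with 6726 ± 377 (SD, n = 3), followed by S100a1 with 2178 ± 138 and Otos with 1258 ± 211. Otor had 86.7 ± 29.9, Pou3f4 64.3 ± 9.15, Cav1 41.3 ± 5.51 and Tbx18 40.2 ± 3.47. Emilin2 had 11.6 ± 1.82 and Tgfbi 7.13 ± 1.41, the lowest of the 9. The ranges of neighbours in this order overlapped for Otor and Pou3f4 and for Cav1 and Tbx18, and were apart for the other 6 pairs. In the old mice the means kept this order, from Coch at 4502 ± 1856, S100a1 at 2471 ± 135 and Otos at 413 ± 107 to Tgfbi at 6.07 ± 1.43. There the ranges of Otor and Pou3f4, of Pou3f4 and Cav1 and of Tbx18 and Emilin2 overlapped.

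**Figure D1:**
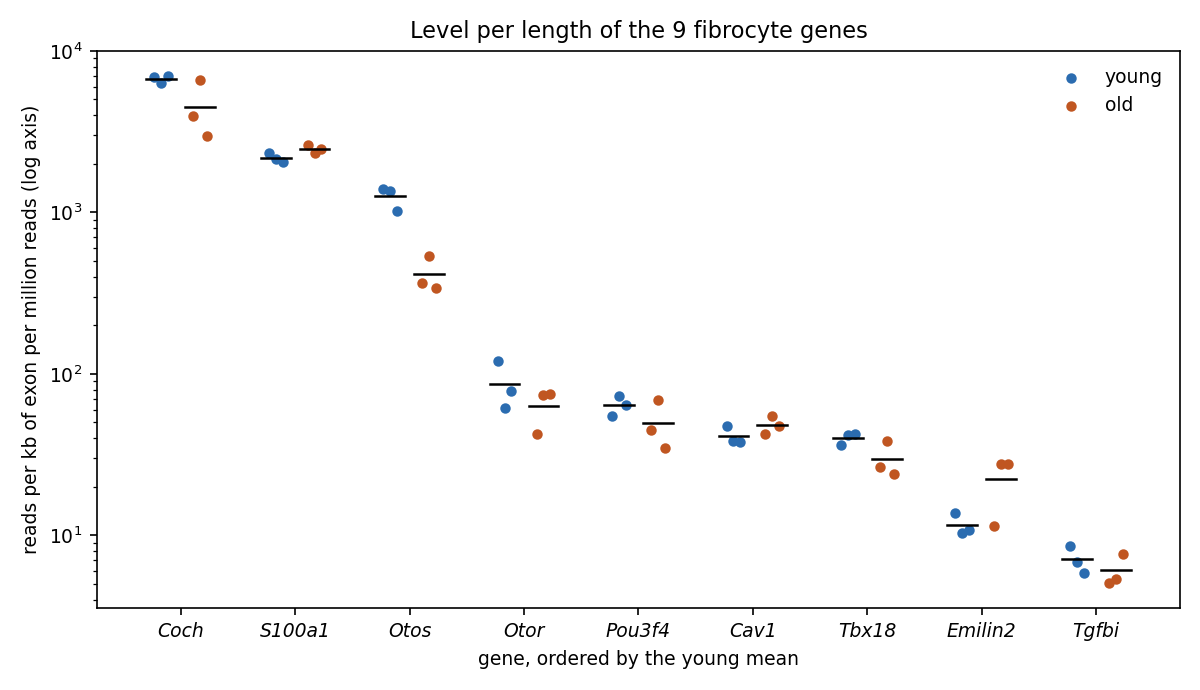
RPKM (log axis) of the 9 genes, with 1 point per library, young in blue and old in orange, and a line at each group mean. Coch, S100a1 and Otos lay above the other 6 genes in every library, and the old points of Otos (340 to 536) lay clear of its young points (1015 to 1394).

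Among the secreted proteins, Otos encodes otospiralin, a small protein of ligament and limbus fibrocytes whose loss impairs hearing in mice (ENSMUSG00000044055, chromosome 1, 92644218 to 92648841, minus strand, by GENCODE on GRCm38 as for the other genes). Its normalised counts were 170591, 161608 and 121947 in young replicates 1, 2 and 3 and 41279, 61099 and 37827 in old replicates 1, 2 and 3. Every old value lay far below the lowest young value, and the groups did not overlap. The means were 151382 ± 25884 and 46735 ± 12559 (SD, n = 3 each). The log2 fold change was −1.71 ± 0.20 (SE, 95% interval −2.17 to −1.26) with a limma adjusted p of 0.00321. It was called in all 6 fits that left out 1 library, with log2 fold changes from −1.92 to −1.58 and adjusted p up to 0.0212, and leaving out old replicate 3, which had little Xist, gave −1.58 with an adjusted p of 0.0111. Without old replicate 2, where blood and marrow markers were lowest among the old, it had −1.92 (adjusted p = 0.000492). Relative to the young mean, the log2 value of Otos was −1.29 in old replicate 2, beside −1.86 and −1.99 in old replicates 1 and 3.

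Coch encodes cochlin, the main secreted matrix protein of the ligament, whose human counterpart is mutated in an inherited loss of hearing and balance (ENSMUSG00000020953, chromosome 12, 51593341 to 51605771, plus strand). The gene took 2.07%, 1.89% and 2.09% of all recovered reads in young replicates 1, 2 and 3 and 1.19%, 1.97% and 0.892% in old replicates 1, 2 and 3. Each share is known to within 0.00454 percentage points by its 95% Wilson interval, which covers counting error only. In normalised counts the young values were 821557, 725083 and 816002, and the old values were 437868, 728041 and 322028. Old replicate 2 lay inside the young range, and the other old libraries lay far below it. The means were 787547 ± 54167 and 495979 ± 209151, the log2 fold change was −0.75 ± 0.26 (95% interval −1.34 to −0.15), and the limma adjusted p was 0.148. The SD of the log2 values was 0.101 in the young and 0.594 in the old group, against medians of 0.136 and 0.177 over genes whose mean reached 50. Without old replicate 2 the log2 fold change was −1.07 (adjusted p = 0.00447), and without old replicate 3 it was −0.48 (0.229). With quantile normalisation, which sets each value by its rank within the library, it was −0.27 (limma adjusted p = 0.505). For a gene this abundant, ranking limits the size of a fall that can be seen.

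Otor encodes otoraplin, a small secreted protein of the MIA family that is made in the cochlea (ENSMUSG00000027416, chromosome 2, 143078473 to 143081713, plus strand). Its counts were 4511, 2250 and 2909 in the young and 1479, 2592 and 2562 in the old replicates, so the groups overlapped. Young replicate 1 was the highest of the 6 and old replicate 1 the lowest. The log2 fold change was −0.53 ± 0.30 (95% interval −1.23 to 0.18, adjusted p = 0.367), and −0.26 without young replicate 1 or without old replicate 1. Its relatives in the MIA family, Mia, Mia2 and Mia3, had log2 fold changes from −0.11 to 0.14, and 0 of 3 were called.

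The transcription factors had their low values in the same old libraries as Coch. Pou3f4, a POU factor of the otic mesenchyme whose loss causes X-linked deafness, is a gene of 1 exon (ENSMUSG00000056854, chromosome X, 110814280 to 110817207, plus strand). Its counts were 6409, 8264 and 7333 in the young and 4830, 7435 and 3689 in the old. Old replicates 1 and 3 lay below all young values, while old replicate 2 lay within them. The log2 fold change was −0.52 ± 0.23 (95% interval −1.05 to 0.02, adjusted p = 0.251), −0.79 without old replicate 2 (adjusted p = 0.0154) and −0.28 without old replicate 3 (0.432). Old replicate 3 had little Xist, and the part of this in the values of Pou3f4, a gene on the X chromosome, was not tested. Tbx18, a T-box factor that the differentiation of otic fibrocytes requires, lies on chromosome 9 from 87702800 to 87731260 on the minus strand (ENSMUSG00000032419). Its counts were 6786, 7558 and 7847 in the young and 4616, 6709 and 4107 in the old, and the groups stood apart by the narrow gap between 6709 and 6786. The log2 fold change was −0.55 ± 0.17 (95% interval −0.94 to −0.17) with a limma adjusted p of 0.104. The authors' deposited table called it (adjusted p = 0.0482), and DESeq2 on reads recovered from that table repeated this (−0.52, adjusted p = 0.0481). By edgeR with TMM it was not called (0.128). Without old replicate 2 it had −0.76 (limma adjusted p = 0.00447), and without old replicate 3 it had −0.41 (0.194). An antisense gene, D030062O11Rik, covers 20.6% of the exon bases of Tbx18, and since strand is not stated their reads cannot be told apart.

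The matrix glycoproteins had fold changes of opposite sign, neither past the test. Emilin2 encodes a glycoprotein of elastic fibres that is found in the basilar membrane (ENSMUSG00000024053, chromosome 17, 71252172 to 71311978, minus strand). Its counts were 2999, 2204 and 2306 in the young and 2318, 5603 and 5495 in the old. Old replicate 1 lay within the young range, and the other old libraries lay far above it. The log2 fold change was 0.74 ± 0.34 (95% interval −0.06 to 1.55, limma adjusted p = 0.269). Without old replicate 1 it was 1.16 with an adjusted p of 0.00572, and without old replicate 2 or 3 it was 0.53 or 0.54 (0.527 and 0.473). The authors' deposited table lists an adjusted p of 0.0344, and DESeq2 on reads recovered from that table repeated this (0.84, adjusted p = 0.0346). Old replicates 2 and 3 were also the libraries with high neurofilament: Nefl had 815 and 890 normalised counts there, 49.4 in old replicate 1 and 12.3 to 58.1 in the young, and the part of nerve tissue in the Emilin2 values was not tested. Tgfbi encodes a secreted matrix protein with fasciclin domains that TGF-beta induces (ENSMUSG00000035493, chromosome 13, 56609523 to 56639562, plus strand). Its counts were 1296, 995 and 864 in the young and 710, 751 and 1050 in the old, with overlapping groups and a log2 fold change of −0.33 ± 0.19 (95% interval −0.77 to 0.10, adjusted p = 0.366). It was −0.17 without young replicate 1 and −0.51 without old replicate 3, and neither passed the test (0.640 and 0.162).

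S100a1 and Cav1 had group means that differed by about the spread between replicates or less. S100a1, an EF-hand calcium sensor used as a marker of ligament fibrocytes (ENSMUSG00000044080, chromosome 3, 90511034 to 90514392, minus strand), had 64132, 57374 and 55631 in the young and 66644, 59965 and 61867 in the old. Its log2 fold change was 0.09 ± 0.11, and the 95% interval of −0.15 to 0.33 bounds the difference. Its spread was small in each group, with the highest library at 1.15 times the lowest in the young and 1.11 times in the old. Cav1, the coat protein of caveolae (ENSMUSG00000007655, chromosome 6, 17306335 to 17341452, plus strand), had 6520, 5084 and 5089 in the young and 5372, 6956 and 5884 in the old, with overlapping groups. Its log2 fold change was 0.13 ± 0.13 (95% interval −0.18 to 0.43). The limma adjusted p was 0.684 for S100a1 and 0.644 for Cav1, and without 1 library the log2 fold changes ran from 0.05 to 0.15 and from 0.03 to 0.25, none called. Cav1 is also abundant in endothelium, and the 14 endothelial markers summed to 21681 to 23713 in the young and 17955 to 32389 in the old, with 0 called.

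**Figure D2:**
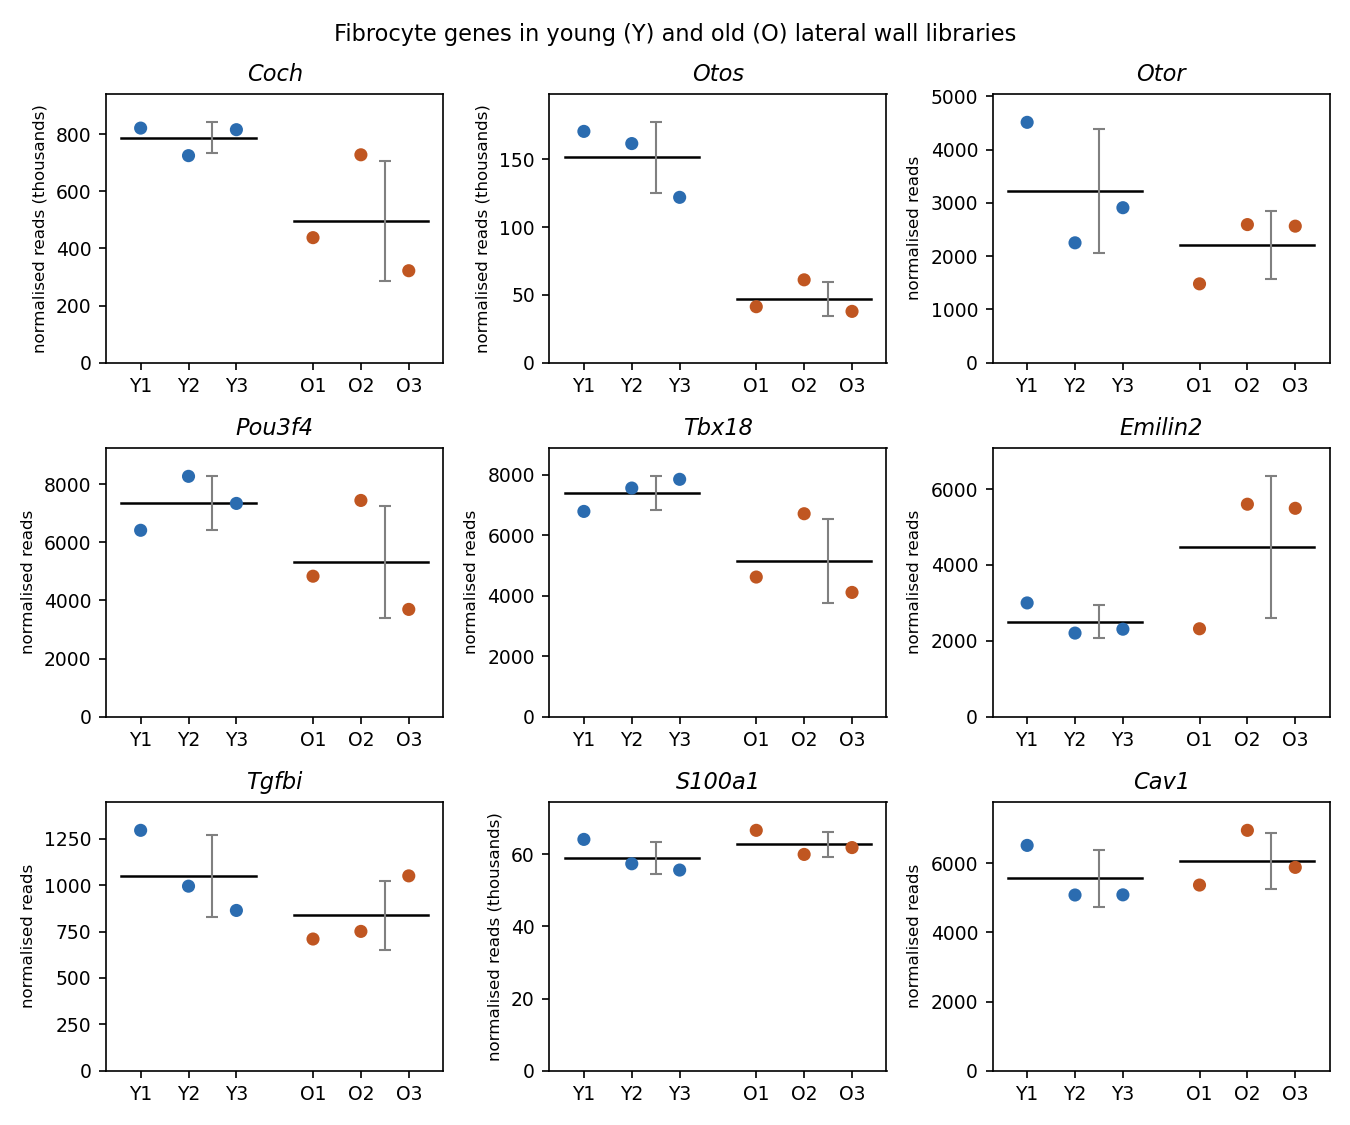
Normalised reads of each gene in young (Y1 to Y3, blue) and old (O1 to O3, orange) libraries, with lines at group means and grey bars of 1 SD on each side, and each axis starting at 0. In Otos every old point lay below every young point, in Coch and Pou3f4 the O2 point lay at the young level, and in Emilin2 the O2 and O3 points lay high.

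Ratios within a library do not depend on the size factor, and they were taken for the other 8 members against Coch. Per 100 normalised reads of Coch, Otos had 20.8, 22.3 and 14.9 in the young and 9.43, 8.39 and 11.7 in the old, so the groups stood apart here too. The log2 ratio of Otos to Coch differed by −0.97, old minus young. Pou3f4 per 100 of Coch was 0.78, 1.14 and 0.899 in the young and 1.10, 1.02 and 1.15 in the old, with overlapping groups. Tbx18 per 100 of Coch had means of 0.943 ± 0.109 and 1.08 ± 0.179 (SD, n = 3 each) and overlapped as well. S100a1 per 100 of Coch had 7.81, 7.91 and 6.82 in the young and 15.2, 8.24 and 19.2 in the old, all old values above all young ones. Emilin2 and Cav1 also lay higher relative to Coch in every old library, with differences of 1.49 and 0.88 in the log2 ratio, beside 0.84 for S100a1. By themselves S100a1 and Cav1 had log2 fold changes of 0.09 and 0.13, and Coch had −0.75. Most of the difference in their ratios was therefore that of the denominator, Coch. An exact two-sided permutation test of 3 against 3 gave p = 0.1 for Otos, Emilin2, S100a1 and Cav1, the smallest value it can give, and 0.2 after Benjamini-Hochberg adjustment over the 8 ratios. For Otor, Pou3f4, Tbx18 and Tgfbi the exact permutation p ran from 0.3 to 0.7.

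**Figure D3:**
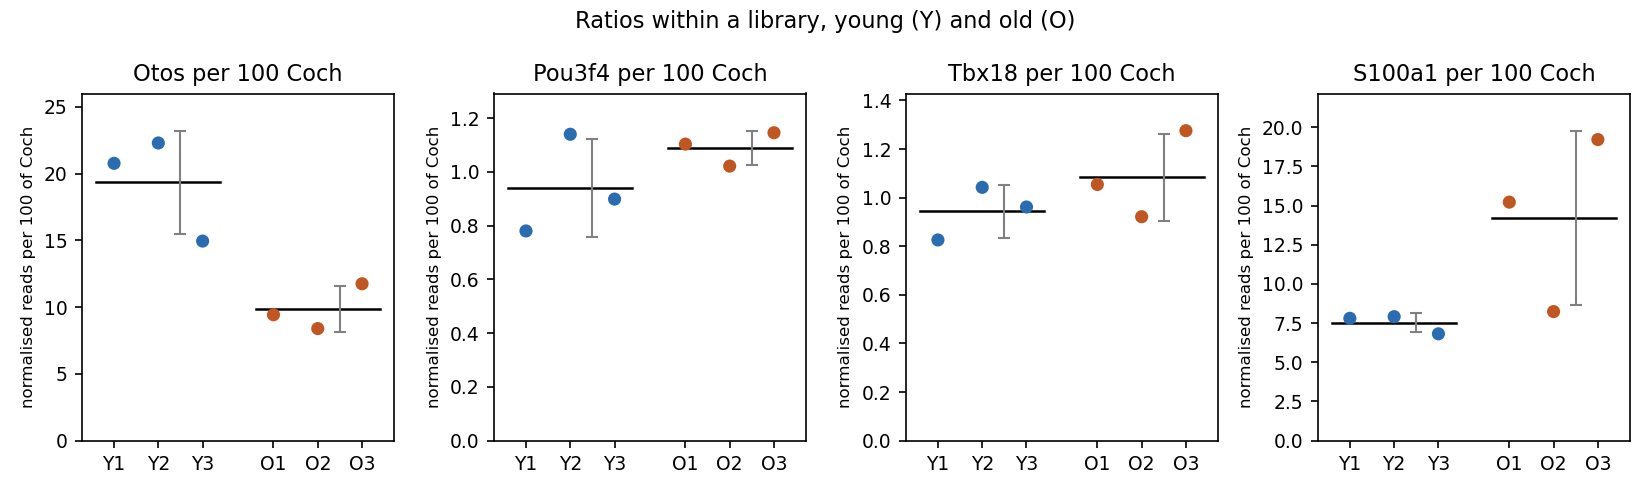
Normalised reads of Otos, Pou3f4, Tbx18 and S100a1 per 100 normalised reads of Coch in each library, with group means and bars of 1 SD on each side. Otos per Coch was lower in all 3 old libraries, Pou3f4 and Tbx18 per Coch overlapped between the groups, and S100a1 per Coch was high in O1 and O3.

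The old libraries in which Coch, Pou3f4 and Tbx18 were low were the ones with high blood and marrow markers. In old replicates 1, 2 and 3 the log2 distances from the young mean were −0.84, −0.11 and −1.29 for Coch, −0.59, 0.03 and −0.98 for Pou3f4 and −0.68, −0.14 and −0.85 for Tbx18. The summed erythroid and neutrophil markers were highest in replicate 3, then 1, then 2, as given above. Old replicate 3, the lowest library for Coch, Pou3f4 and Tbx18, was also the one with little Xist (45.2 normalised reads). The part of that difference in the values of these genes was not tested. Other tissue of the dissection was measured too: of 12 bone cell markers 6 fell and 0 rose (3 fell without young replicate 1 and 2 without young replicate 2), and of 11 skeletal muscle markers 2 fell and 0 rose (0 fell without young replicate 3), with Myh1 at 0 in all old libraries and Myh2 and Acta1 at 0 in old replicate 3. Over all genes, 2.55% fell and 2.71% rose in the limma fit over 6 libraries. The muscle markers summed to 425 to 637 in the young and 170 to 291 in the old. The bone list sum is set by Spp1, which the stria also expresses, and ran from 317397 to 371269 in the young and from 299925 to 365067 in the old. The part of these tissues in the member values was not tested. Of 8 marginal cell markers 0 were called, and of 8 intermediate and basal cell markers Mlana, a gene of pigment cells, alone rose. These strial lists summed in the old to 298488 to 417447 and 223107 to 316060, and in the young to 368926 to 411979 and 263346 to 274130.

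**Figure D4:**
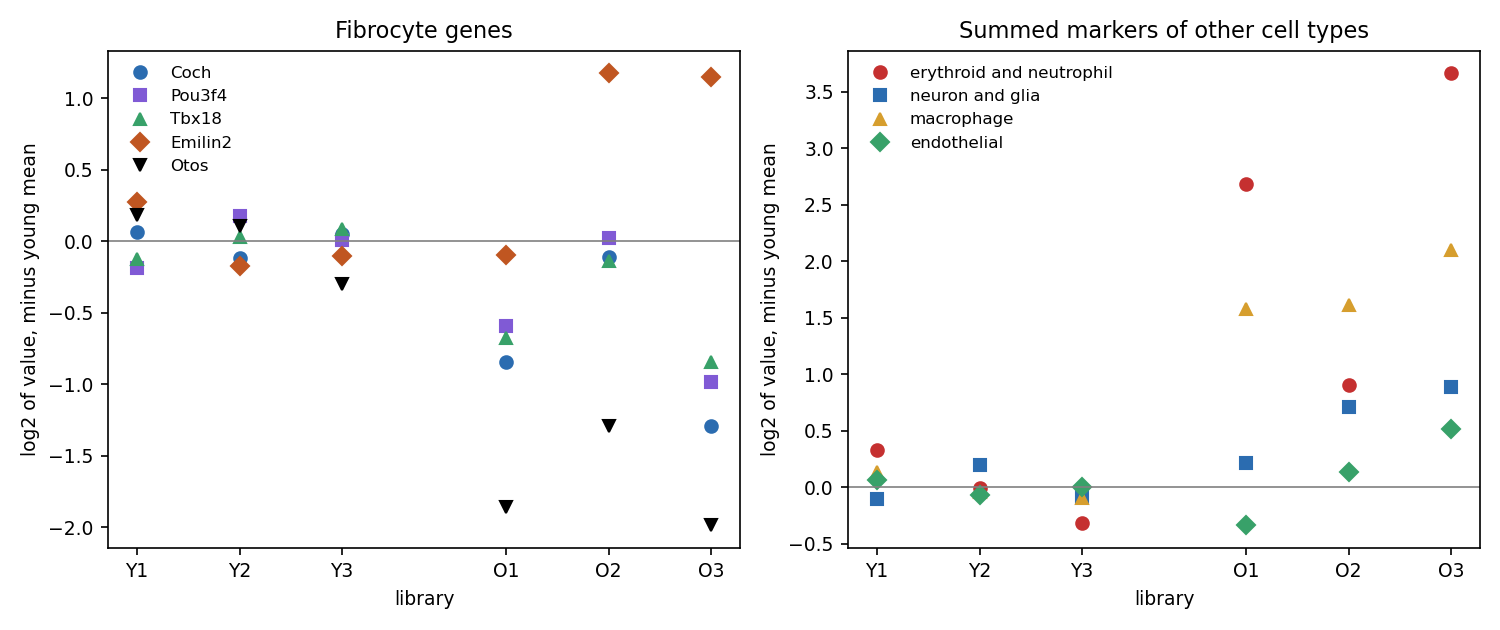
Left, log2 normalised reads of 5 members in each library, minus the mean of the young libraries; right, the same for the summed markers of 4 other cell types. Coch, Pou3f4 and Tbx18 lay low in O1 and O3, where the erythroid and neutrophil sum (27917 and 54990) was high, whereas Otos lay low in all 3 old libraries, least so in O2.

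Genes whose course over the 6 libraries was most like that of Coch were sought among the 13308 genes whose mean reached 50, by the root mean square difference of centred log2 values. The nearest were Hsd11b1, the enzyme that regenerates active glucocorticoid (0.073), Ccdc80 (0.0864), Slc4a10, a sodium-coupled bicarbonate transporter (0.0873), Npas2 (0.109) and Sostdc1 (0.111). Slc4a10 had 41085, 32338 and 39200 in the young and 19649, 31336 and 13516 in the old, the same dip in old replicates 1 and 3. Nearest to Otos were Dio2, the deiodinase that activates thyroid hormone (0.117), Cpxm1 (0.134), Srpx2 (0.151), Cntn4 (0.158) and the collagen-binding integrin gene Itga11 (0.169). Dio2 had 1068, 1005 and 816 in the young and 302, 350 and 222 in the old. These genes were chosen by their values in the same libraries, and their likeness is a description.

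A wider set of 17 other genes of ligament fibrocytes held 3 that fell and 1 that rose, or 23.5% called, with a median log2 fold change of −0.33 and 15 of 17 negative. Over all genes, 5.25% were called (2.55% lower and 2.71% higher) and 50.2% were negative. Crym, which encodes the thyroid hormone binding protein mu-crystallin, had 339, 261 and 293 in the young and 99.9, 109 and 101 in the old, with groups far apart. Its log2 fold change was −1.51 ± 0.18 (limma adjusted p = 0.00336), and it was called without each of the 6 libraries. Ctgf, a matricellular growth factor, fell by 1.18 ± 0.23 (adjusted p = 0.0285), and the call was lost without young replicate 2 (0.114), young replicate 3 (0.113) or old replicate 2 (0.0567). Aqp1, the water channel of the type of fibrocyte that lines the bone, had 12668, 10790 and 11383 in the young and 2108, 5456 and 1589 in the old. Its old values all lay below the young ones, its log2 fold change was −2.14 ± 0.43 (adjusted p = 0.0435), and the call was lost in 5 of the 6 fits without 1 library (it stood without old replicate 2 alone), at 0.0644 to 0.162, and with quantile normalisation (0.0548). Vim, the intermediate filament of mesenchymal cells and also of macrophages and glia, rose by 0.73 ± 0.16 (adjusted p = 0.033), with the call lost without old replicate 3 (0.0549) or any young replicate (0.0588 to 0.146). The macrophage sums given above were higher in the same old libraries, and their part in the Vim values was not tested. Among those not called were Apod, with 1106670 ± 60277 in the young and 777909 ± 249184 in the old (−0.56, 95% interval −1.10 to −0.03) and S100b (−0.59, −1.09 to −0.09).

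**Figure D5:**
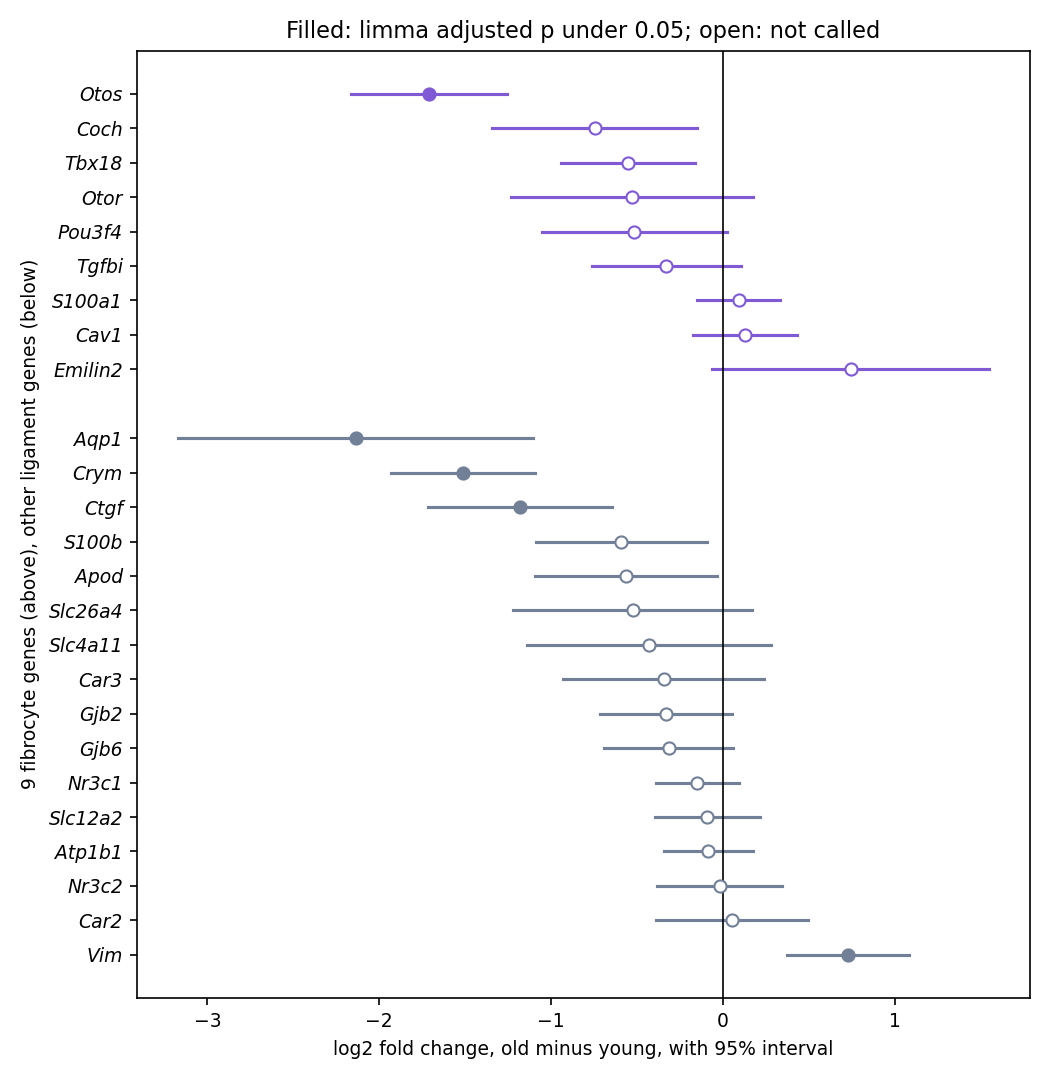
Log2 fold change, old minus young, with its limma 95% interval for the 9 members (purple, above) and other ligament genes (grey, below), filled where the adjusted p was under 0.05. Otos at −1.71 was the filled point among the members, and Aqp1, Crym, Ctgf and Vim were filled below.

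Relatives and partners of single members were set beside them. Their counts stand beside 2.55% of all genes called lower and 2.71% called higher by limma. Of 8 relatives of cochlin with LCCL or matrilin domains, 2 fell: Vit, a matrix protein of the same domain plan as cochlin, had 1462, 1323 and 1439 in the young and 669, 763 and 634 in the old (log2 fold change −1.03 ± 0.12, limma adjusted p = 0.00265). All old values of Vit were well below the young, old replicate 2 included, and it was called without each of the 6 libraries. Crispld1 fell by 1.31 ± 0.30 (adjusted p = 0.0419), with the call lost without any library but old replicate 3 (0.0645 to 0.171) and with edgeR (0.0593). The abundant members of that list, Dcbld2 and Matn2, had −0.08 and 0.15 and were not called.

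Of 20 regulators of otic mesenchyme 1 fell, Foxc2, a forkhead factor, from 266 ± 23.9 to 102 ± 29.0 normalised counts (−1.41 ± 0.25, limma adjusted p = 0.0151). Its call was lost without young replicate 2 (0.0689) or 3 (0.0827). Over all genes, 2.55% were called lower. Tbx2 and Eya1, the members of that list with the most reads, had −0.42 and −0.08 and were not called. Among 18 other T-box and POU genes 0 were called, and 5 had an unadjusted limma p under 0.05. Over all genes, 3647 of 17091 were under that unadjusted level. Pou3f3, the relative of Pou3f4 with the most reads, had 3561, 3611 and 3723 in the young and 2128, 3533 and 2167 in the old, so it too was low in old replicates 1 and 3 (−0.52 ± 0.18, adjusted p = 0.148). The other close relatives, Pou3f1 and Pou3f2, went the other way at few reads, with young means of 5.52 and 6.59. Their log2 fold changes were 1.69 and 1.81, not called (limma adjusted p = 0.140 and 0.156). The large T-box gene Mga had −0.10.

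Of 10 caveola coat genes beside Cav1, 0 were called and 2 had an unadjusted p under 0.05, and the abundant Pacsin2 and Cavin1 had −0.15 and −0.10. Of 5 EMILIN and multimerin genes 0 were called, with Mmrn2 at 0.61 and Emilin1 at −0.50, of opposite sign, and 3 had an unadjusted p under 0.05. Both counts stand beside 3647 of all 17091 genes at that unadjusted limma level. None of the 3 fasciclin domain genes was called, with Postn at 0.32 and Stab1 at −0.36. Among 10 other S100 genes and S100pbp, which encodes a binding partner of an S100 protein, 2 rose and 0 fell, namely S100a4 (1.67 ± 0.32, limma adjusted p = 0.0215) and S100a6 (1.37 ± 0.29, adjusted p = 0.031). The calls of S100a4 and S100a6 were lost without young replicates 2 or 3 or old replicate 3 (0.0603 to 0.119), and that of S100a6 also without old replicate 2 (0.0597). Over all genes, 2.71% were called higher by limma. The S100 genes with the most reads beside S100a1 were S100b, given above, and S100a13 (0.22, not called).

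Genes of the interstitial matrix made by connective tissue cells were read beside the members. Of 20 interstitial matrix genes 10 fell and 0 rose, with a median log2 fold change of −0.85, and 7 to 14 fell without 1 library (7 without any young replicate). Over all genes, 2.55% fell and 2.71% rose in the fit over 6 libraries. Some of these genes, Col1a2 and Col5a2 among them, are also made by bone cells, and the 12 bone cell markers had a median of −1.52 with 6 that fell. The part of bone in the matrix values was not tested. Those with the smallest p were Col1a2, Col11a1, Col6a1 and Col5a2, with log2 fold changes of −3.73, −1.37, −1.88 and −2.19 and limma adjusted p of 0.00161 to 0.00249, each called without any 1 library. Col11a2, a chain of type XI collagen with many reads, fell by 0.58 ± 0.12 (limma adjusted p = 0.0268), with the call lost without any young replicate (0.0668 to 0.133), without old replicate 1 (0.0737) and with quantile normalisation (0.0681). Dcn, which encodes the proteoglycan decorin, had 47328, 38002 and 41671 in the young and 26767, 54308 and 20942 in the old, with old replicate 2 the highest of all 6, and was not called (−0.43, adjusted p = 0.5). Whether the median of this list differs from that of the members was not tested.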

How the data were processed

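Total RNA from the pooled lateral walls of each of 6 mice was purified with the miRNeasy Mini Kit and libraries were made with a TruSeq RNA kit, per the labels' protocols. The submitters' processing notes list Partek, TopHat2, DESeq2 and mm10 but no version or role. Annotation and strand are not given in the sources used here. Deposited values are a signal per gene and library (reads over a size factor) and, for old against young, a p-value, an adjusted p-value (absent for 332 genes) and a signed fold change. Low values are whole multiples of the value of 1 read (0.946 to 1.05). Division by it gave whole reads within 0.1 in 99.9% of values. These recovered reads were used for depth, level per length and count models.

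Because the deposited values are normalised, log2(value + 1) was tested with limma 3.58.1 (trend and robust, R 4.3.3), adjusted by Benjamini-Hochberg over 17091 genes at a threshold of 0.05. The script was tested on simulated data. Each sample is 1 mouse. After a log2 fold change ± gives the SE, after a mean the SD. Alternatives were edgeR 4.0.16 and DESeq2 1.42.0 on recovered reads, quantile normalisation, other pseudocounts, a mean of at least 10, limma without trend and robust estimation, the replicate number as a block and leaving out each library. The members and lists were chosen with earlier results of these data known, so no list was tested. Named genes are all members and, of each list of relatives, up to 4 called genes with the smallest p and the 2 with the highest mean. Pou3f1 and Pou3f2 were added as relatives of Pou3f4. Positions and exon lengths come from GENCODE M21 (GRCm38, which is mm10), and promoters from RefSeq on GRCm38.p6. Some genes that this rule would name are not reported here.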

Additional observations from a re-analysis of the deposited data

How the results depend on the processing

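Over 16 alternatives, each of the 9 members kept the sign of its log2 fold change. Of 144 member values, 136 stayed on the same side of the threshold and 8 passed it where the limma fit over 6 libraries did not. Only Otos had a call to lose, and it kept the call in all 16. These alternatives are not independent: all use the same 6 mice, some change little in the fit, and DESeq2 repeats the authors' deposited result. The number of members called was 3 with DESeq2 and in the authors' deposited table, and 1 to 4 without 1 library (2 without old replicate 1, 1 without old replicate 3, 4 without old replicate 2, where 6.64% of all genes were called). The members' median of −0.52 ran from −0.67 to −0.26 without 1 library. Of all genes, 898 were called, 1819 with DESeq2, 1818 in the authors' deposited table, 337 with limma without trend and robust estimation, and 230 to 1134 without 1 library. Replicate numbers did not pair the mice: same-numbered samples had correlations of −0.244, −0.0965 and −0.0879 in their deviations from group means, and with the replicate block 406 genes and 1 member (Otos, adjusted p = 0.00671) were called. Of the called relatives, Aqp1, Col11a2, Crispld1, S100a6 and Vim lost the limma call with the replicate block (0.0536 to 0.077) and without trend and robust estimation (0.0881 to 0.124), Ctgf with both (0.05005 and 0.0971), S100a4 with the block (0.0707) and Foxc2 without trend and robust estimation (0.0537). Where the report gives 0 called for the endothelial, marginal cell, fasciclin or T-box and POU list, leaving out 1 library gave 1 or 2 in some fits. For the caveola coat list, 4 of the 16 alternatives called at least 1 gene higher in old. Depth was even across libraries. The number of mice, 3 in each group, limits what these comparisons can show.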
